A study of Mus musculus with 22 samples.

Results

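The exons described here lie in nuclear genes for mitochondrial proteins: subunits and assembly factors of respiratory complex I (symbols starting with Nduf), complex III (Uqcr) and complex IV (Cox), ATP synthase (Atp5), the import machinery (Timm, Tomm), the mitochondrial ribosome (Mrpl, Mrps), the carriers of the inner membrane and their relatives (Slc25, Mtch) and twin-cysteine proteins (Chchd). A skipped-exon event was a member when its whole span lay in the mm10 span of a protein-coding gene with such a symbol. This gave 114 of 10873 events, with 111 distinct exons in 72 of the 262 genes that carry these symbols in the reference. Of these events, 99 were deposited in all 7 libraries, 5 in 6 libraries, 1 in 3 libraries, and 9 in the untransfected libraries alone.

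RNA was sequenced from mouse embryonic stem (ES) cells to ask how DNA methylation and HP1 proteins bear on exon inclusion. HP1 proteins bind methylated histone H3 in compact chromatin, and HP1alpha, HP1beta and HP1gamma are encoded by Cbx5, Cbx1 and Cbx3. The WT cells were the R1 line, and the TKO cells lacked the DNA methyltransferases Dnmt1, Dnmt3a and Dnmt3b. Both untransfected groups were read as 50-base single ends on a Genome Analyzer II. Single knock-downs were made in WT cells with 90 nM siRNA to HP1alpha, HP1beta or HP1gamma, and a triple knock-down with 60 nM to each. The triple knock-down of TKO cells used 80, 80 and 120 nM siRNA, in the same order. RNA was taken 48 h later, and these 5 groups were read as 101-base paired ends on a HiSeq 2000. The cells were kept feeder-free on gelatin in medium with leukaemia inhibitory factor.

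Each group had 2 samples, which the authors pooled into 1 splicing summary, so each library has no replicate spread and each test compares libraries, not conditions. Knock-down, transfection, read length and pairing changed together, and no library with a control siRNA is labelled, so their parts in any knock-down difference cannot be told apart. TKO and WT were compared within each platform. Libraries are named by their labels, and event reads over the targeted genes were set against the library's event reads (RPM). Cbx3 was at 457 and 480 RPM in WT and TKO and between 32.2 and 52.2 in all 5 knock-down libraries, so it does not set the HP1gamma knock-down apart from the others. Cbx5 was at 43.0 to 56.2 RPM in the 3 libraries transfected against it and at 105 to 113 in the other 4. Cbx1 was at 615 and 659 RPM in WT and TKO, 507 with HP1beta, 551 with the triple knock-down in WT, 1520 and 1620 with HP1alpha and HP1gamma, and 1000 in the library labelled triple knock-down in TKO. In that library Cbx1 reads were above those of untransfected TKO, which was read on the other platform. Within its own platform they lay between the WT libraries transfected against HP1beta, at 507 and 551, and those not, at 1520 and 1620. These reads do not settle how far Cbx1 was lowered there, and "triple knock-down" in TKO stands below for the library so labelled. Dnmt3b was at 562 RPM in WT and 88.1 in TKO, Dnmt3a was at 74.8 and 33.7, and Dnmt1 had no event. In the knock-down libraries Dnmt3b was at 170 to 239 RPM in WT cells and 79.6 in TKO cells. Dnmt3a was at 77.6 to 136 and 26.4 there. Of 14 ES cell markers 5 had an event and were read in all 7 libraries, with a summed level of 2380 to 3220 RPM. Of markers of other cells, 1 of 10 fibroblast genes had an event (Fn1, 289 to 433 RPM), 1 of 5 endoderm genes (Sox17, listed in the TKO libraries alone, at 14.6 and 17.7), 2 of 4 neural genes (summed 23.1 to 30.7 RPM in WT and both TKO libraries, unlisted in the 4 WT knock-downs) and 0 of 4 mesoderm genes. The part of these markers in the differences below was not tested.

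The respiratory chain pumps protons across the inner mitochondrial membrane, and ATP synthase uses the gradient to make ATP. Most subunits are made in the cytosol, imported through the TOM and TIM complexes and joined by a few subunits that mitochondrial ribosomes make inside. Carriers of the Slc25 family move metabolites and cofactors through the inner membrane. Exons of these genes can alter a subunit's end, its targeting peptide or the reading frame.

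The deposited inclusion level is the estimated share, from 0 to 1, of the isoform with the exon among the isoforms of its event, with and without the exon. It is not a share of all transcripts of the gene. Overlapping versions of an exon are separate events, and their levels can add up to more than 1, as with 0.92 and 0.66 for Mrps10 in WT. Reads that fit inclusion alone or skipping alone are called distinguishing reads here. Exons in mitochondrial genes mostly lay at an extreme, as did most events of the series. In WT 29.8% of the members had a level of at most 0.1, beside 24% of all events. A level of at least 0.9 was found there for 40.4% of the members, beside 37.9% of all events. Of the 99 events read in all libraries, 26 had a level of at most 0.1 in all 7, 30 had a level of at least 0.9 in all 7, and 10 stayed between these bounds in all 7. The range of a level over the 7 libraries was under 0.1 for 58 of the 99 events, with a median of 0.07, against 0.13 for all 6143 such events of the series. Over the 4 WT knock-down libraries the median range was 0.03, against 0.05 for all events. These genes were also read deeply: 86.8% of the members were present in all libraries, against 56.5% of all events, and a member had a median of 201.5 distinguishing reads in WT and 250 in TKO, against 96 and 100 over all events. In the knock-down libraries the members' median was 64 to 146 such reads, and the deposited interval of a level was 0.06 to 0.10 wide at the median, against 0.03 in WT and TKO.

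A minority of the exons had a length that keeps the reading frame. A length divisible by 3 was found for 33 of 111 member exons, or 29.7%, against 46.6% of all exons in the series. Their median length was 97 nt, against 106 nt over all exons, with extremes of 11 nt in Slc25a43 and 1092 nt in Ndufv3. Several events share sequence and are not independent: the 104-nt exon of Ndufs1, a 26-nt exon of Mrpl24 and a 45-nt exon of Slc25a14 each stand in 2 events with different neighbours. Slc25a38, Slc25a39, Mtch2, Mrps10, Chchd7, Ndufv1 and Timm10b are among the genes with overlapping versions of an exon.

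Complex IV exons had inclusion levels near 0. All 6 events had levels of 0.00 to 0.04 in all 7 libraries, at the floor of the scale, where a small range says little. In each main comparison 5 were tested and 0 were called, beside 0.469% to 12.3% of all events. With so few events tested, this does not set complex IV apart. The event of Cox7a2l had 0 skipping reads in all 7 libraries, so its level does not rest on such reads. Cox4i1, a nuclear-encoded subunit of the enzyme, had its 142-nt exon at 0.00 in every library, with 3720 skipping and 15 inclusion reads in WT. Cox17, a copper chaperone, was at 0.03, 0.03, 0.03, 0.04, 0.03, 0.02 and 0.03 in WT, TKO, the HP1alpha, HP1beta and HP1gamma knock-downs, and the triple knock-down in WT and in TKO, the order used throughout. Other constant exons were the 127-nt exon of Mrps23, at 1.00 in all 7, and the 167-nt exon of Mrpl42, at 0.99 or 1.00. The largest ranges were found in complex I (0.93, Ndufs3), ATP synthase (0.87, Atp5l) and the ribosome (0.79, Mrpl33).

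**Figure D1:**
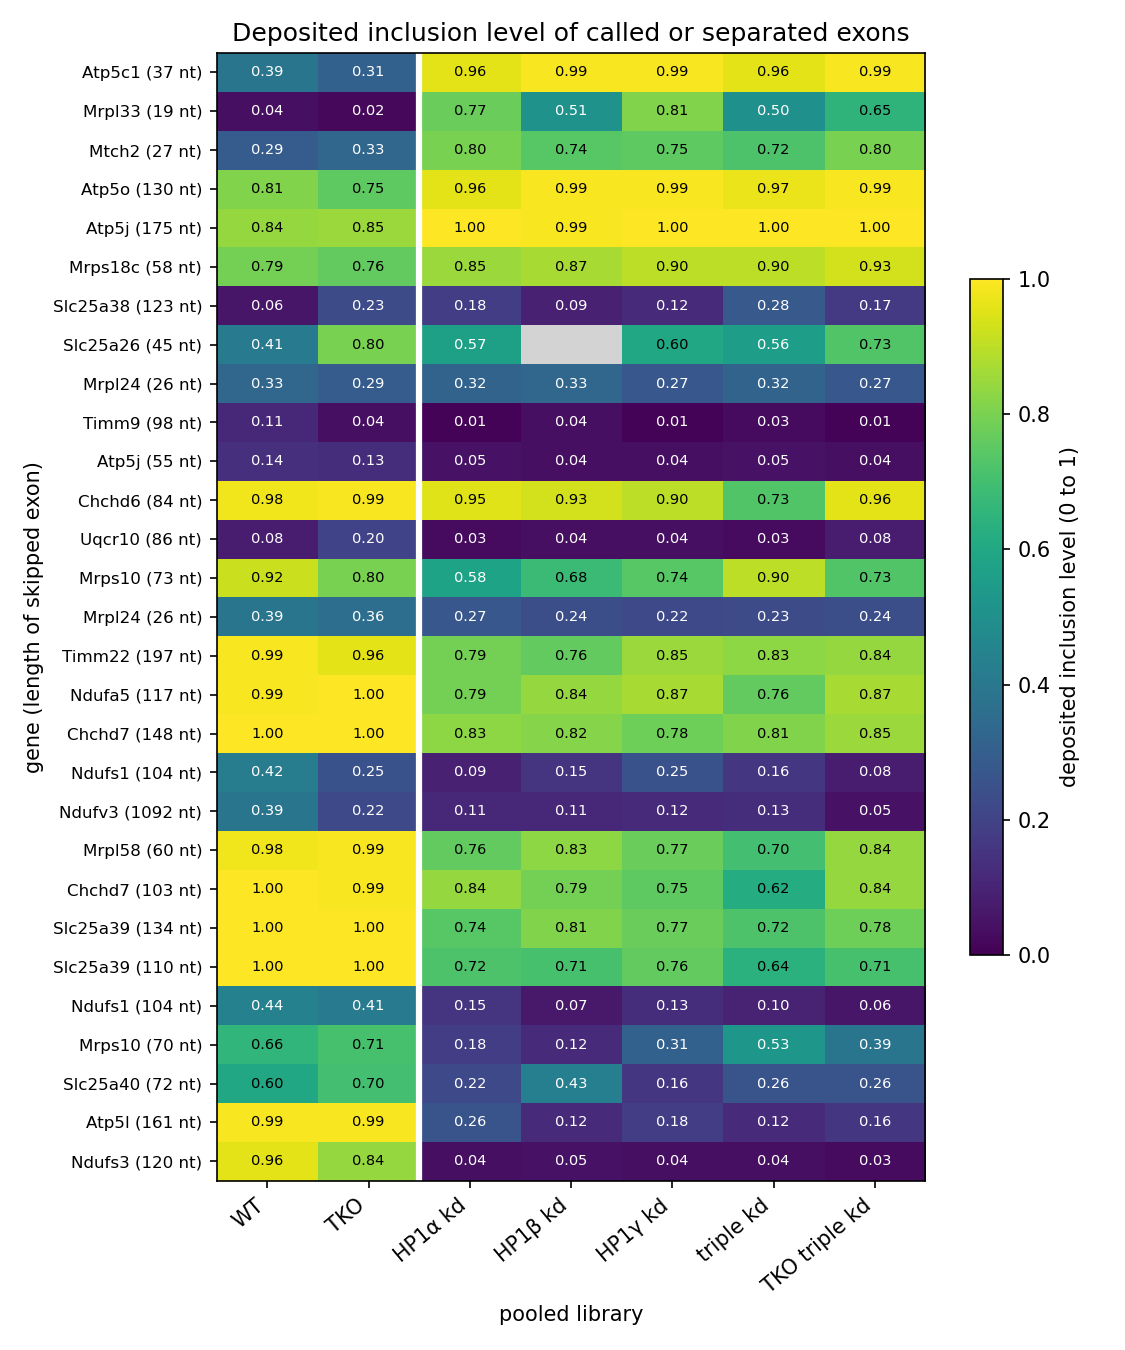
Deposited inclusion level (colour and number, 0 to 1) of exons called in any main comparison or separating knock-down from untransfected libraries, by pooled library (columns; kd, knock-down; grey, no value), with 2 called events left out; both events of the Mrpl24 and Ndufs1 exons are shown. Atp5c1 lies at 0.31 to 0.39 left of the white line and at 0.96 to 0.99 right of it, while Ndufs3 lies at 0.84 to 0.96 and at 0.03 to 0.05.

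TKO was compared with WT on the untransfected libraries first; the comparison after triple knock-down also differs in siRNA dose. In this comparison 3 member events rose and 2 fell of 99 tested, or 5.05%, beside 4.57% of all 7695 events tested (3.18% higher, 1.39% lower). A call needed a Benjamini-Hochberg adjusted p no larger than 0.05, a level difference of 0.1 or more, and 20 or more distinguishing reads in each library. The median difference of the members was 0.00. In an alternative test the odds ratio of no change was not 1 but the median of events of similar exon length, and 2 members were then called higher and 3 lower. The 5 calls fell in complex I (Ndufv3 and Ndufs1), complex III (Uqcr10) and the carriers (Slc25a26 and Slc25a38), and none of the tested events of ATP synthase (8), complex IV (5), import (9), the ribosome (17) or the Chchd genes (9) was called. An unadjusted p under 0.05 was found for 15 of the 99, or 15.2%, beside 16.2% of all events.

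Uqcr10 is a small subunit of complex III, which passes electrons from ubiquinol to cytochrome c. Its 86-nt exon (mm10, chromosome 11, 4703904 to 4703989) had a level of 0.08 in WT and 0.20 in TKO, from 217 inclusion and 1214 skipping reads against 631 and 1369. The exon rose in TKO, with an odds ratio of 1.36 on the log2 scale (Fisher's exact test, Benjamini-Hochberg adjusted p = 2.65e-26). After the triple knock-down the levels were 0.03 in WT and 0.08 in TKO, from 116 and 1449 against 870 and 4152 reads. The log2 odds ratio was then 1.38, close to that without knock-down, and the adjusted p of Fisher's exact test was 4.51e-21, but the level difference of 0.05 was under the minimum of 0.1, so the event was not called. Inclusion reads thus made up 15.2% of distinguishing reads in WT (95% exact binomial interval 13.3 to 17.1) and 31.6% in TKO (29.5 to 33.6), and 7.41% (6.16 to 8.82) and 17.3% (16.3 to 18.4) after the triple knock-down. These intervals cover counting error only, and reads without molecular identifiers are not independent molecules. The 3 single knock-downs in WT were at 0.03, 0.04 and 0.04, near the triple knock-down in WT and below the untransfected TKO library. Between the TKO libraries the exon fell from 0.20 to 0.08 (Fisher's exact test, Benjamini-Hochberg adjusted p = 3.38e-35), while in WT the step from 0.08 to 0.03 was too small to be called.

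Ndufv3 is an accessory subunit at the electron entry site of complex I and is known to be made in a short form and in a long form that carries an extra large exon. The 1092-nt exon (chromosome 17, 31527310 to 31528401; length divisible by 3) fell from 0.39 in WT to 0.22 in TKO, from 1614 inclusion and 864 skipping reads to 758 and 836. The log2 odds ratio was -1.04 (Fisher's exact test, Benjamini-Hochberg adjusted p = 7e-26). After the triple knock-down, levels were 0.13 in WT and 0.05 in TKO, from 907 and 343 reads against 953 and 981. The log2 odds ratio of -1.44 had the smallest adjusted p of all 4473 events tested between these libraries (7.82e-36, Fisher's exact test, Benjamini-Hochberg adjusted), with a level difference of -0.08 that was not called. Inclusion reads of Ndufv3 were lower in TKO on both platforms: 65.1% in WT and 47.6% in TKO, then 72.6% and 49.3%.

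Ndufs1 is the largest iron-sulfur subunit of complex I. Its 104-nt exon (chromosome 1, 63172154 to 63172257) stands in 2 events that differ in the neighbouring exon on one side. With one neighbour it fell from 0.42 to 0.25, from 105 inclusion and 66 skipping reads in WT to 63 and 98 in TKO (Fisher's exact test, Benjamini-Hochberg adjusted p = 0.00154). With the other neighbour it was at 0.44 and 0.41, from 77 and 20 reads against 63 and 22, and was not called (adjusted p = 1 by the same Fisher's exact test). After the triple knock-down, levels were 0.16 in WT and 0.08 in TKO for the former event, with 13 and 12 distinguishing reads, too few to test. The 2 events of Ndufs1 share their inclusion exon, and the difference between them was not tested.

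The 2 called carriers rest on few reads. Slc25a26 brings S-adenosylmethionine, the methyl donor, into mitochondria. Its 45-nt exon (chromosome 6, 94576334 to 94576378) was at 0.41 in WT, from 10 inclusion and 10 skipping reads, and at 0.80 in TKO, from 34 and 5 (Fisher's exact test, Benjamini-Hochberg adjusted p = 0.0426). The call was lost with the odds ratio of no change set by exon length (conditional exact test, Benjamini-Hochberg adjusted p = 0.114). In the 4 knock-down libraries that list the exon, levels were 0.57, 0.60, 0.56 and 0.73, from 1 to 3 distinguishing reads each, so this difference could not be tested again. Slc25a38, which supplies glycine for haem synthesis, had its 123-nt exon at 0.06 in WT (7 inclusion and 38 skipping reads) and at 0.23 in TKO (17 and 11; Fisher's exact test, Benjamini-Hochberg adjusted p = 0.00206). After the triple knock-down the order was the other way, 0.28 in WT and 0.17 in TKO, from 15 and 13 against 11 and 17 reads, which was not called (adjusted p = 1 by Fisher's exact test).

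Under the triple knock-down 0 of 81 members were called between TKO and WT by Fisher's exact test, Benjamini-Hochberg adjusted, beside 0.469% of all events, and 6 (7.41%) had an unadjusted p under 0.05, beside 5.3% of all events. Adjusted p was at most 0.05 for Uqcr10 and Ndufv3 alone among the members. The others with an unadjusted p under 0.05 were Atp5c1, Atp5d, Atp5l and Chchd6, all with higher levels in TKO. Chchd6, a part of the complex that shapes the cristae, was at 0.73 in WT and 0.96 in TKO after the triple knock-down, from 34 inclusion and 4 skipping reads against 206 and 2 (Fisher's exact test, Benjamini-Hochberg adjusted p = 0.324).

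The TKO differences without and with the triple knock-down share no library. Over the 99 events in all 7 libraries Pearson's r between them was -0.07, against 0.08 over all 6143 events; the points of 1 library share its depth and sequencing platform. A difference of at least 0.05 on both platforms was found for 6 members with the same sign and for 5 with opposite signs. Uqcr10 and Ndufv3 had the same sign, and Slc25a38 had opposite signs.

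**Figure D2:**
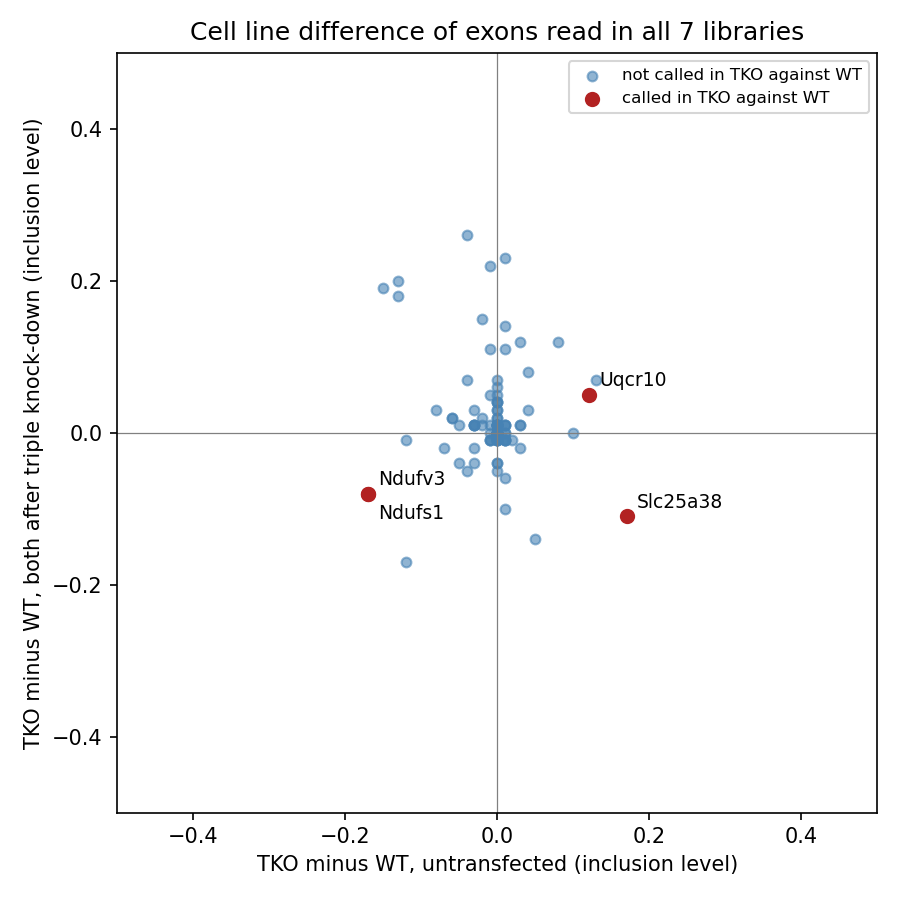
TKO minus WT inclusion level without knock-down (horizontal) and after the triple knock-down in both lines (vertical), 1 point per event of mitochondrial genes read in all 7 libraries; red points were called in TKO against WT. Ndufv3 and Ndufs1 coincide at -0.17 and -0.08, Uqcr10 lies at 0.12 and 0.05, and Slc25a38 at 0.17 and -0.11.

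Each knock-down library was then compared with the untransfected library of its cell line, across platforms. Called members were 10 of 81 (3 higher, 7 lower; 12.3%) for the triple knock-down in WT, beside 11.2% of all events (1.83% higher, 9.37% lower). For HP1alpha they were 12 of 89 (3 higher, 9 lower; 13.5%), beside 11.8% (1.64% and 10.2%), and for HP1beta 7 of 86 (2 higher, 5 lower; 8.14%), beside 11.8% (1.92% and 9.91%). For HP1gamma they were 12 of 87 (2 higher, 10 lower; 13.8%), beside 11.4% (1.6% and 9.84%), and 3 higher and 5 lower with the odds ratio of no change set by exon length. For the triple knock-down in TKO they were 7 of 86 (3 higher, 4 lower; 8.14%), beside 12.3% (1.31% and 10.9%). These shares were near those of all events. The direction given is that of the level, also where the odds ratio of no change was set by exon length. In each of the 4 WT comparisons 1 member counted as lower, Ndufv3, had reads that moved towards inclusion. Without it the lower calls were 6 for the triple knock-down, 8 for HP1alpha, 4 for HP1beta and 9 for HP1gamma.

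The 4 comparisons in WT use the same WT library, so a value peculiar to it enters all of them. Distinguishing reads moved towards skipping over the whole series: the median log2 odds ratio was -1.18 to -1.65 over all events in the 5 comparisons and -1.04 to -1.29 over the members. The read classes differed between the platforms as well. Of the members' reads, 38.0% and 38.4% fitted neither isoform in the untransfected WT and TKO libraries, and 55.7% to 60.7% in those with knock-down; over all events the step was smaller, from 50.5% and 49.1% to between 53.6% and 56.9%. The members' reads that fitted both were 41.8% and 41.9%, then 15.2% to 18.9%. The part of these read classes in the level differences was not tested.

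**Figure D3:**
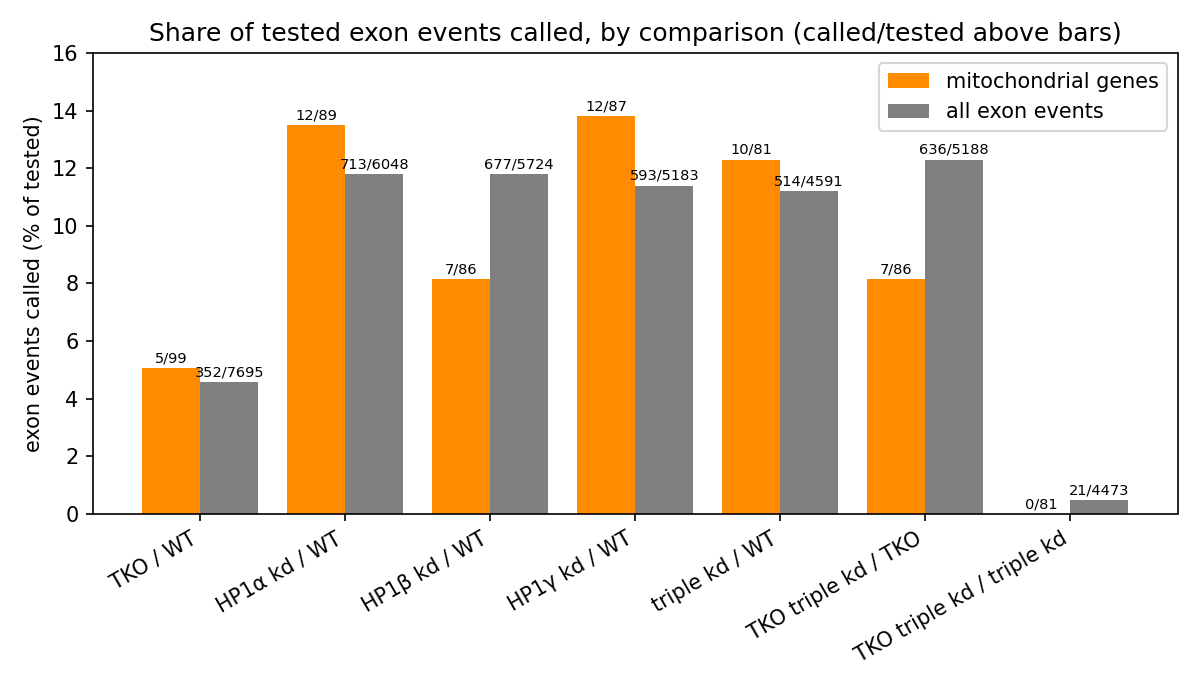
Percent of tested exon events called in each main comparison, for mitochondrial genes (orange) and for all events (grey), with called and tested numbers above the bars. Members stand at 5.05% in TKO against WT, at 8.14% to 13.8% across platforms and at 0 in TKO against WT after the triple knock-down.

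ATP synthase held the 2 widest called shifts, in opposite directions. Atp5c1 encodes the gamma subunit, the rotating shaft of the catalytic head, and is known for an exon whose use differs between muscle and other tissues. Its 37-nt exon (chromosome 2, 10056770 to 10056806) was at 0.39 in WT and 0.31 in TKO and at 0.96, 0.99, 0.99, 0.96 and 0.99 in the 5 knock-down libraries. The reads for inclusion and for skipping were 111 and 29 (WT) and 82 and 27 (TKO), against 477 and 11, 544 and 1, 448 and 1, 257 and 6, and 736 and 2. The levels of the knock-down libraries and of the untransfected ones did not overlap. The exon rose in all 5 comparisons, by 0.57 to 0.68, with adjusted p between 9.92e-22 (triple knock-down in TKO) and 3.62e-08 (triple knock-down in WT) by Fisher's exact test, Benjamini-Hochberg. Inclusion reads of Atp5c1 rose from 79.3% of distinguishing reads in WT (71.6 to 85.7) to 97.7% (95.1 to 99.2) after the triple knock-down, so the reads moved less than the level. Reads that fitted both isoforms numbered 1329 in WT and 5 to 14 in the knock-down libraries.

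Atp5l encodes subunit g, which helps ATP synthase pair in the membrane. Its 161-nt exon (chromosome 9, 44914651 to 44914811) was at 0.99 in WT and TKO and at 0.26, 0.12, 0.18, 0.12 and 0.16 in the knock-down libraries. It fell in all 5 comparisons, by 0.73 to 0.87, with adjusted p between 2.97e-21 (HP1gamma) and 2.12e-08 (HP1alpha) by Fisher's exact test, Benjamini-Hochberg. The reads behind it moved less. Skipping reads were 0 and 1 without knock-down and 7 to 16 with it, beside 51 to 158 inclusion reads, so inclusion still made up 81.0% to 95.8% of distinguishing reads. Reads of all classes at Atp5l were 9585 and 8009, against 602 to 1117.

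**Figure D4:**
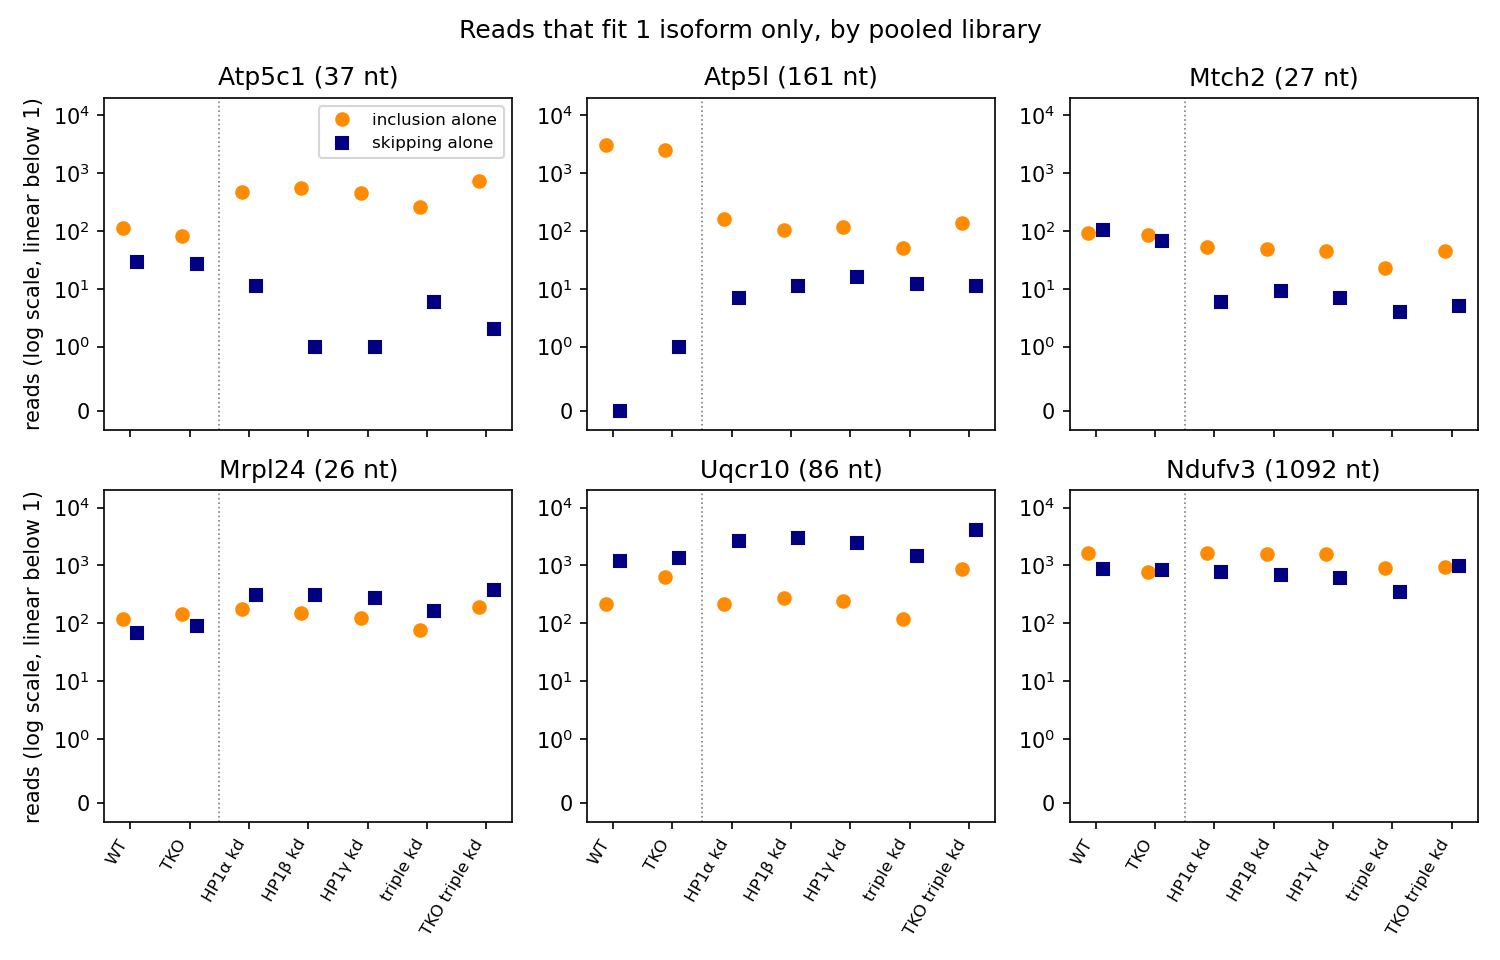
Reads that fit inclusion alone (orange) and skipping alone (blue) of 6 exons by pooled library (kd, knock-down), on a log axis that is linear below 1; the dotted line parts untransfected from knock-down libraries. In Atp5c1 skipping reads drop from 29 in WT to at most 11, and in Uqcr10 inclusion reads are highest in the TKO libraries, at 631 and 870.

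The 4 other ATP synthase subunits named here moved by smaller amounts. Atp5j, coupling factor 6 of the peripheral stalk, had its 55-nt exon at 0.14 and 0.13 without knock-down and at 0.05, 0.04, 0.04, 0.05 and 0.04 with it. Its reads were many, 359 inclusion and 1355 skipping in WT against 135 and 1695 after the triple knock-down in WT. The difference reached the minimum of 0.1 for HP1beta and HP1gamma alone (adjusted p = 5.02e-48 and 8.48e-55, Fisher's exact test, Benjamini-Hochberg adjusted) and was -0.09 in the other 3 comparisons. The 175-nt exon of Atp5j went from 0.84 and 0.85 to 0.99 or 1.00, and the 130-nt exon of Atp5o, which links head and stalk, went from 0.81 and 0.75 to 0.96 to 0.99, both with no skipping reads in WT and TKO and at most 3 in the knock-downs, and neither was called.

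Atp5d, the delta subunit of the catalytic head, had 3901 inclusion and 0 skipping reads (WT) and 3255 and 27 (TKO), at levels of 1.00 and 0.99. After knock-down its 89-nt exon was at 0.95, 0.95, 0.95, 0.91 and 0.96, with 19 to 29 skipping reads. The WT library was the lone one with 0 skipping reads, and no level difference reached 0.1. Atp5k, another membrane subunit, was between 0.95 and 1.00 in all 7.

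Complex I calls after knock-down were of Ndufs1 and Ndufv3 alone, and in Ndufs1 level and reads both fell. The 104-nt exon of Ndufs1 with the larger read support there was at 0.44 and 0.41 without knock-down and at 0.15, 0.07, 0.13, 0.10 and 0.06 with it, and the groups did not overlap. It fell by 0.34 after the triple knock-down in WT (77 inclusion and 20 skipping reads against 8 and 17, adjusted p = 0.000196) and by 0.35 in TKO cells (adjusted p = 6.53e-05, Fisher's exact test, Benjamini-Hochberg adjusted). It also fell with HP1alpha and HP1gamma, the latter call being lost with the odds ratio of no change set by exon length, while with HP1beta 18 distinguishing reads were too few to test. The other event of the Ndufs1 exon fell with HP1alpha, from 0.42 to 0.09 (6 inclusion and 22 skipping reads, adjusted p = 0.00127 by Fisher's exact test, Benjamini-Hochberg), and had too few reads in the other knock-downs.

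For Ndufv3 the level and the reads went opposite ways across platforms. The level was 0.39 in WT and 0.11, 0.11, 0.12 and 0.13 in the 4 WT knock-downs, all called lower. Inclusion reads meanwhile made up 65.1% of distinguishing reads in WT and 68.7%, 70.2%, 72.2% and 72.6% in the knock-downs. The calls of Ndufv3 in these 4 comparisons therefore have no settled direction, unlike its difference between TKO and WT, where level and reads went the same way.

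Ndufs3 had the widest range of any member and could not be tested across platforms. This gene encodes a core subunit of complex I, and its 120-nt exon (chromosome 2, 90898384 to 90898503) was at 0.96 in WT and 0.84 in TKO and at 0.04, 0.05, 0.04, 0.04 and 0.03 after knock-down. Inclusion reads were 571 and 453, against 3 to 9 after knock-down, where 0 to 3 reads fitted skipping and 86 to 248 reads fitted both isoforms. Ndufab1, the mitochondrial acyl carrier protein, was alike: 2978 and 2843 inclusion reads in WT and TKO and 0 in the 4 knock-down libraries that list it, at levels of 1.00 and 1.00 against 0.24, 0.17, 0.28 and 0.17, from at most 2 skipping reads. Ndufa5, an accessory subunit, went from 0.99 and 1.00 to between 0.76 and 0.87. It had 11 skipping reads in WT and 0 in TKO and in every knock-down library, so its reads did not move with the level. Ndufaf6, an assembly factor, kept the upstream of its pair of 57-nt exons between 0.53 and 0.73 in all 7 libraries and was not called.

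Import calls were of Timm22 and Timm9, 1 or 2 of 7 or 8 tested in each WT comparison and 0 of 8 in TKO, all lower, beside 9.37% to 10.9% of all events called lower and 1.31% to 1.92% called higher. Timm22 forms the channel that inserts carriers into the inner membrane. Its 197-nt exon (chromosome 11, 76409642 to 76409838) was at 0.99 and 0.96 without knock-down and at 0.79, 0.76, 0.85, 0.83 and 0.84 with it. The exon fell in the 4 WT comparisons, where WT had 513 inclusion and 0 skipping reads and the knock-downs had 6 to 15 skipping reads, with adjusted p from 5.2e-05 (HP1alpha) to 0.0245 (HP1gamma) by Fisher's exact test, Benjamini-Hochberg. In TKO, with 791 and 21 reads without knock-down and 549 and 13 with it, Timm22 was not called (adjusted p = 1 by Fisher's exact test). With HP1gamma the call was lost with the odds ratio of no change set by exon length.

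Timm9, a small chaperone between the membranes, had a 98-nt exon at 0.11 in WT and at 0.04, 0.01, 0.04, 0.01, 0.03 and 0.01 elsewhere. It fell with HP1alpha and HP1gamma, from 16 inclusion and 60 skipping reads to 0 and 35 and to 0 and 29 (adjusted p = 0.0158 and 0.0315, Fisher's exact test, Benjamini-Hochberg adjusted). Both calls of Timm9 were lost with the odds ratio of no change set by exon length, and TKO without knock-down was at 0.04, the level of the HP1beta library. An 86-nt exon of Timm9 was intermediate throughout, at 0.74, 0.77, 0.66, 0.56, 0.55, 0.57 and 0.69, and was not called. Its inclusion and skipping reads were 343 and 84 in WT, 115 and 14 with HP1alpha and 57 and 11 after the triple knock-down in WT. These reads moved towards inclusion while the level fell. Tomm34, a cochaperone of import, was between 0.92 and 1.00 in all 7. Timm23, the channel of the main inner membrane translocase, was listed in WT and TKO alone, at 0.78 and 0.75.

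Mrpl24, a protein of the large mitochondrial ribosomal subunit, held a 26-nt exon (chromosome 3, 87919803 to 87919828) in 2 events that differ in the end of the exon before it. With one end the level was 0.39 and 0.36 without knock-down and 0.27, 0.24, 0.22, 0.23 and 0.24 with it. This event fell in all 5 comparisons, with 119 inclusion and 68 skipping reads in WT against 75 and 164 after the triple knock-down (adjusted p = 1.24e-09, Fisher's exact test, Benjamini-Hochberg adjusted). With the other end the level stayed between 0.27 and 0.33 in all 7 libraries and was never called. Its inclusion reads nonetheless went from 76.7% of distinguishing reads in both untransfected libraries to between 41.5% and 47.4%, a step about as large as that of the called event, 63.6% to between 31.2% and 36.2%.

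Mrps10 and Mrps18c belong to the small ribosomal subunit. The 73-nt exon of Mrps10 was at 0.92, 0.80, 0.58, 0.68, 0.74, 0.90 and 0.73 and fell with HP1alpha alone (120 inclusion and 2 skipping reads against 29 and 6, adjusted p = 0.0116), a call lost with the odds ratio of no change set by exon length (Fisher's exact test, Benjamini-Hochberg adjusted). A 70-nt version of the Mrps10 exon was at 0.66, 0.71, 0.18, 0.12, 0.31, 0.53 and 0.39, with 3 to 10 distinguishing reads in the knock-downs, too few to test. The 58-nt exon of Mrps18c was at 0.79 and 0.76 without knock-down and at 0.85, 0.87, 0.90, 0.90 and 0.93 with it. It rose after the triple knock-down in TKO, from 151 inclusion and 19 skipping reads to 85 and 0 (adjusted p = 0.00408), while in WT the same knock-down gave 62 and 0 against 182 and 18 (adjusted p = 0.0514, Fisher's exact test, Benjamini-Hochberg adjusted).

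A 19-nt exon of Mrpl33 had a range of 0.79: 0.04 and 0.02 in WT and TKO against 0.77, 0.51, 0.81, 0.50 and 0.65. WT and TKO had 1 distinguishing read in all and the knock-down libraries had 6 to 15, so it was not tested. Mrpl58, a release factor that frees stalled mitochondrial ribosomes, went from 0.98 and 0.99 to between 0.70 and 0.84 at a 60-nt exon. Skipping reads there were 9 and 3 in WT and TKO and 0 in the knock-downs, so the reads did not move with the level.

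Mtch2, an insertase of the outer membrane related to the carriers, had the clearest rise outside ATP synthase. The 27-nt exon (chromosome 2, 90852840 to 90852866) was at 0.29 and 0.33 without knock-down and at 0.80, 0.74, 0.75, 0.72 and 0.80 with it, and the groups did not overlap. The reads for inclusion and for skipping were 94 and 102 (WT) and 86 and 66 (TKO), against 52 and 6, 49 and 9, 45 and 7, 23 and 4, and 45 and 5. The exon rose in all 5 comparisons, by 0.43 to 0.51 (adjusted p from 7.66e-08 with HP1alpha to 0.00315 with the triple knock-down in WT, Fisher's exact test, Benjamini-Hochberg adjusted). A 51-nt version of the same Mtch2 exon, with the same skipping reads, was at 0.16 and 0.14 without knock-down and at 0.06 to 0.11 with it. Its inclusion reads were 65 and 45 in WT and TKO and 0 in each knock-down library. The knock-down libraries had 4 to 9 distinguishing reads there, too few to test, and their deposited intervals overlapped those of WT and TKO. An 85-nt exon elsewhere in Mtch2 was at 0.99 or 1.00 in all 7.

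Slc25a40, a glutathione carrier, had a 72-nt exon (chromosome 5, 8427196 to 8427267) at 0.60 and 0.70 without knock-down and at 0.22, 0.43, 0.16, 0.26 and 0.26 with it. It fell with HP1alpha (50 inclusion and 16 skipping reads in WT against 20 and 38, adjusted p = 6.14e-05), with HP1gamma (7 and 21, adjusted p = 9.16e-05) and with the triple knock-down in WT (10 and 15, adjusted p = 0.0182), by Fisher's exact test, Benjamini-Hochberg. With HP1beta, at 25 and 17 reads, Slc25a40 was not called (adjusted p = 0.299 by Fisher's exact test), and the difference between the HP1beta library and the others was not called either. The triple knock-down call was lost with the odds ratio of no change set by exon length.

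Slc25a38 rose with HP1alpha (0.06 to 0.18, adjusted p = 0.0367) and with the triple knock-down in WT (0.28, adjusted p = 0.0105, Fisher's exact test, Benjamini-Hochberg adjusted). The HP1alpha call was lost when the deposited intervals had to lie apart. The triple knock-down in WT had 15 inclusion and 13 skipping reads. With HP1beta and HP1gamma this exon of Slc25a38 was at 0.09 and 0.12 and was not called. Slc25a39, another carrier of the Slc25 family, went from 1.00 to between 0.64 and 0.81 in 2 overlapping versions of an exon. Neither version had a skipping read in any library, and the 81-nt exon of Slc25a39 was at 1.00 in all 7. Chchd6 fell after the triple knock-down in WT from 0.98 to 0.73 (173 inclusion and 0 skipping reads against 34 and 4, adjusted p = 0.00791, Fisher's exact test, Benjamini-Hochberg adjusted) and was at 0.90 to 0.96 in the other 4 knock-down libraries. Chchd7, another twin-cysteine protein, had its 148-nt exon at 1.00 without knock-down and at 0.78 to 0.85 with it, again without skipping reads, and was not called.

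Called events were a minority of the shifts in level. After the triple knock-down in WT, 34 of 101 members differed from WT by at least 0.1 (33.7%), beside 41.7% of all events; of the 34, 10 were called, 12 were tested and not called, and 12 had too few distinguishing reads. Between TKO and WT 16 of 114 members did so (14.0%), beside 21.2% of all events; 5 of them were called, 8 were tested and not called, and 3 were not tested. In the other knock-down comparisons the share was 30.5% for HP1alpha (38.8% of all events), 31.1% for HP1beta (39.9%), 33.7% for HP1gamma (40.7%) and, with the triple knock-down of TKO cells, 29.1% (40.7%). Some tested members so shifted had distinguishing reads that moved against the level. They numbered 4 for the triple knock-down in WT, 6 each for HP1alpha, HP1beta and HP1gamma, 8 for the triple knock-down in TKO and 2 between TKO and WT. Over all main comparisons 19 events with 18 exons in 17 genes were called at least once, 79 events were tested in every comparison, and 13 in none. Of the called exons 7 of 18 had a length divisible by 3. The share of all events called at least once, and the lengths of their exons, were not counted, so these counts do not set the members apart.

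The 5 knock-down and the 2 untransfected libraries did not overlap, by a gap of at least 0.1, for 17 of the 99 members (17.2%), beside 17.9% of all events. Of these, 5 were higher in the knock-downs (Atp5c1, Mrpl33, Mtch2, Atp5o and the 175-nt exon of Atp5j), beside 3.29% of all events, and 12 were lower, beside 14.6%. Read support differed among them: Atp5c1 and Mtch2 had skipping reads in both sets of libraries, Atp5o and Atp5j had almost none.

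Single and triple knock-downs in WT, all read on 1 platform, were compared in the 6 possible pairs. Fisher's exact test, Benjamini-Hochberg adjusted, called 0 members in each pair, of 81 to 87 tested, and 2 to 7 members (2.33% to 8.05%) had an unadjusted p under 0.05, beside 2.42% to 2.77% of all events. Of all events, 0.0214%, 0 and 0.0217% were called in the triple knock-down against HP1alpha, HP1beta and HP1gamma, 0.0171% and 0 in HP1alpha against HP1beta and HP1gamma, and 0.019% in HP1beta against HP1gamma. At these depths, no member could be told apart between the siRNA targets: the smallest adjusted p of a member was 0.101, in HP1alpha against HP1beta. Level differences of at least 0.1 were seen for 6 to 15 members a pair, or 5.77% to 15.0%, beside 14.2% to 16.1% of all events, and 10 members had a range of at least 0.2 over the 4 libraries.

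The triple knock-down was made in both cell lines, and its differences share no library. Over the 99 members Pearson's r between the differences in WT and in TKO was 0.89, against 0.76 over all 6143 events; both sets of points share the change of platform. Zelen's exact test, which asks whether the knock-down's odds ratio was equal in both lines, called 4 of 80 members, beside 2.69% of 4344 events: Atp5d, Timm22, the 39-nt exon of Chchd7, and Slc25a38. By that test 8 members had an unadjusted p under 0.05, beside 343 of all events (7.9%). The siRNA doses were 60 nM each in WT and 80, 80 and 120 nM in TKO, so cell line and dose cannot be told apart in this comparison, nor between TKO and WT after the triple knock-down. In Atp5d and Timm22 WT had 0 skipping reads and TKO had 27 and 21, so skipping reads appeared with knock-down in WT and were already there in TKO. In Slc25a38 the level rose by 0.22 in WT and was 0.06 lower in TKO, where its adjusted p was 0.491 by Fisher's exact test, Benjamini-Hochberg. The shared members called in both lines by Fisher's exact test were Atp5c1, Atp5l, Mtch2, Mrpl24 and Ndufs1. Of all events, 11.2% were called in WT and 12.3% in TKO. The share called in both lines was not counted, so this list does not set the members apart.

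Other nuclear genes of mitochondrial proteins, from a list of 105 that covers membrane dynamics, carbon oxidation, proteolysis and mitochondrial gene expression, gave 95 events in 45 genes. Between TKO and WT 2 rose and 2 fell of 83 (4.82%, beside 4.57% of all events): Mief1 and Mff, receptors of the fission machinery, and Clpx, a protease subunit. Mief1 rose from 0.37 to 0.61, 1 exon of Mff fell from 0.51 to 0.34 and another rose from 0.22 to 0.39, and Clpx fell from 0.99 to 0.79 (adjusted p from 5.44e-06 to 0.0146, Fisher's exact test, Benjamini-Hochberg adjusted). After the triple knock-down 1 rose and 5 fell of 59 in WT (10.2%, beside 11.2%), and 0 rose and 8 fell of 63 in TKO (12.7%, beside 12.3%), shares near those of all events; an event among the falls lies in the spans of both Dnajc19 and Fxr1. Dnm1l, the GTPase that divides mitochondria, fell at a 33-nt exon from 0.82 to 0.36 in WT and from 0.89 to 0.49 in TKO, and Fis1, a fission protein of the outer membrane, fell from 0.91 to 0.53 and from 0.96 to 0.64. Between TKO and WT after the triple knock-down 1 of 61 events of the list was called (1.64%, beside 0.469% of all events). This was a 15-nt exon of Immt, a cristae protein, at 0.33 in WT against 0.01 in TKO cells (adjusted p = 2.29e-11, Fisher's exact test, Benjamini-Hochberg adjusted). The Immt exon was at 0 in untransfected WT and at 0.82, 0.28 and 0.83 with HP1alpha, HP1beta and HP1gamma.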

How the data were processed

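Per the labels, the authors pooled the 2 samples of each group; TopHat2, Bowtie2 and mm10 are listed, without versions, in the submitters' processing notes. Per the file headers, the deposited files are MISO summaries of skipped exons: an inclusion level as a fraction (0 to 1), an interval of unstated level, and the number of reads per class. Its version and settings are not given here by label or header. Every event had at least 100 reads, so less-read events are missing from a library. Depth was 4677236 to 25941844 event reads per library.

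Events were joined by coordinates and matched to spans in RefSeq GRCm38.p6, on either strand. Predicted genes gave way to other genes, and of all 10873 events 10335 lay in 1 gene, 102 in several and 436 in none. Inclusion-only and skipping-only reads were compared by Fisher's exact test, two-sided, and triple knock-down differences between cell lines with Zelen's exact test (Python 3.11.15, SciPy 1.17.1), p-values being adjusted by Benjamini-Hochberg over all events with at least 20 such reads per library. The tests were checked on simulated data. Odds ratios use 0.5 added reads. There were 7 main comparisons, 6 pairs of knock-downs and 8 alternatives. Bisulfite and MNase samples were not analysed here, and exon sequences were not used here. The values of 1 member gene are not reported here, while its events stay in all counts.

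Members and lists were chosen with earlier results of these data known. Named members are up to 20 called events per comparison by level difference, 1 per gene, the event with most WT reads per symbol prefix, members called by Zelen's test, and members between 0.1 and 0.9 in all 7 libraries. Members with wide ranges but no call (Ndufs3, Mrpl33, Ndufa5, Mrpl58, Atp5o, Slc25a39, the longer versions or exons in Atp5j and Mtch2) and a few constant ones (Cox17, Atp5k) were named after their values were seen.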

Additional observations from a re-analysis of the deposited data

Results flagged for a closer look

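For 4 members the triple knock-down difference was unequal in WT and TKO (Zelen's exact test, Benjamini-Hochberg adjustment over 4344 events); siRNA doses were higher in TKO, so cell line and dose cannot be told apart. In Atp5d the level difference was -0.09 in WT and -0.03 in TKO, a difference of 0.06 (adjusted p = 3.76e-08 by Zelen's exact test). In Timm22 it was -0.16 and -0.12, a difference of 0.04 (adjusted p = 0.00737 by Zelen's exact test). In the 39-nt exon of Chchd7 it was -0.05 and 0.03, a difference of 0.08, from 16 inclusion reads in WT, 7 after triple knock-down in TKO and 0 in the other pair of libraries (adjusted p = 0.0289 by Zelen's exact test). In Slc25a38 it was 0.22 and -0.06, a difference of -0.28 (adjusted p = 0.033 by Zelen's exact test). Each value comes from pooled libraries without replicate spread.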

How the results depend on the processing

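No paired analysis was possible because each group's replicates are merged in 1 deposited summary; for the same reason no replicate could be left out. With at least 40 distinguishing reads in place of 20, the number of called members went from 5 to 3 (TKO against WT), 10 to 6 (triple knock-down in WT), 12 to 7 (HP1gamma) and, by Zelen's exact test, 4 to 2. With a level difference of at least 0.2 in place of 0.1 it went from 5 to 1 (TKO against WT), 12 to 6 (HP1gamma) and 7 to 4 (triple knock-down in TKO). Over all events, calls between TKO and WT went from 352 of 7695 to 316 of 6648 with 40 reads. With a difference of 0.2 they went to 147 of 7695. For the triple knock-down in WT, calls over all events went from 514 of 4591 to 408 of 3514 with 40 reads. The other counts of called members stayed within 1.5 times under these settings and the remaining alternatives. Of 51 calls of named members, 48 kept apart the deposited intervals and 43 remained with the odds ratio of no change set by exon length. Of the same calls, 47 had read shares in the direction of the level and 32 reached a difference of 0.2. None reversed in level, which alone set the direction of a call. The 4 calls whose reads went against the level are those of Ndufv3 in the WT knock-downs. Setting the odds ratio by exon length does not test their lower level. With the triple knock-down in WT the adjusted p of Ndufv3 went from 7.12e-05 (Fisher's exact test) to 5.91e-49 (conditional exact test), with reads that moved towards inclusion. Depth limits the knock-down libraries most: 82 of 101 deposited members had 20 distinguishing reads after the triple knock-down in WT, against 102 of 114 in WT.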
